A study of Caenorhabditis elegans with 24 samples.

Results

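Ephrins, semaphorins and plexins are signalling proteins of the cell surface and the space between cells. The 10 genes described here are members of these families in the nematode Caenorhabditis elegans: the Eph receptor gene vab-1, the ephrin genes vab-2, efn-2, efn-3 and efn-4, the semaphorin genes smp-1, smp-2 and mab-20, and the plexin genes plx-1 and plx-2. Every probe set whose only annotated gene symbol was 1 of these 10 names was taken, which gave 13 of the 22548 probe sets that are not controls of the array, for 10 of the 17118 genes with a probe set of their own. The genes vab-1, efn-4 and smp-1 had 2 probe sets each and the other 7 genes had 1 probe set each.

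The study hybridized RNA of neurons and RNA of all cells to Affymetrix C. elegans arrays. Embryonic pan-neural RNA (3 arrays) came from fluorescent cells sorted out of cultured embryonic cells of a strain with the transgene evIs111, F25B3.3::GFP, whose promoter is active throughout the nervous system, and the embryonic reference (4 arrays) came from all viable cultured cells, neurons included. In both, the cells had been taken out of the embryo and had spent a day in culture. Larval pan-neural RNA (3 arrays) was pulled down from mid-L2 larvae of the integrated line gaIs153, in which F25B3.3::FLAG::PAB-1 places a tagged poly(A)-binding protein in all neurons. Larval A-class RNA (4 arrays) was pulled down by the same procedure from the line wdEx257, unc-4::3XFLAG::PAB-1. Its tag has 3 FLAG repeats, which the study used to make the method more sensitive for these neurons. The unc-4 promoter is active in A-class motor neurons of the ventral nerve cord and also in I5, a neuron of the pharynx, and in the interneurons AVF. The larval reference (5 arrays) was the RNA that bound nonspecifically in mock pull-downs from N2 wild-type larvae. The labels call the replicates of a group biological. Both larval samples were set against the same 5 reference hybridizations, which were normalized once with each, so their comparisons are not independent of each other.

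In C. elegans, the Eph receptor tyrosine kinase VAB-1 binds ephrins that are held in the membrane of neighbouring cells by a lipid anchor, and the contact guides axons and the neuroblast and epidermal movements that close the embryo. Semaphorins act on plexin receptors: the membrane-bound SMP-1 and SMP-2 through PLX-1, and the secreted MAB-20 through PLX-2, in the epidermis, the male tail and growing axons. The ephrin EFN-4 has roles apart from VAB-1 and is known to act together with MAB-20 and with heparan sulfate proteoglycans.

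Larval neurons held more plx-2 transcript, and at 1 of 2 probe sets more efn-4 transcript, than the larval reference. At 1 of 2 probe sets, embryonic neurons held less smp-1 transcript than all embryonic cells, and no member differed from the reference in the A-class sample by the call used here. Each difference that was called lost its call under some of the alternative fits given below. A probe set was called higher or lower at a change of at least 1.5-fold and an adjusted p under 0.01 in limma, which fits a linear model to each probe set and moderates its variance, the p-values being adjusted over all 22548 probe sets by the method of Benjamini and Hochberg. By that call, 1 of the 13 member probe sets was lower (2.78% of all probe sets were) and 0 were higher (1.96% of all) in embryonic neurons, with 5 at an unadjusted p under 0.05 in either direction. In the larval pan-neural sample 2 of 13 were higher (6.08% of all) and 0 were lower (3.34% of all), with 4 at an unadjusted p under 0.05. In the A-class sample 0 of 13 were higher (0.776% of all) and 0 were lower (0.115% of all), with 2 at an unadjusted p under 0.05. With 13 probe sets, counts of 0 to 2 stand close to these backgrounds. The smp-1 call was lost without any 1 of 6 of the 7 arrays, and after median centring or quantile normalization. Embryonic neuron arrays also shared no hybridization day and no chip lot with their reference. In a limma fit with the hybridization day as a fixed block, neither larval call held (adjusted p = 0.0329 for plx-2 and 0.0389 for efn-4).

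**Figure D1:**
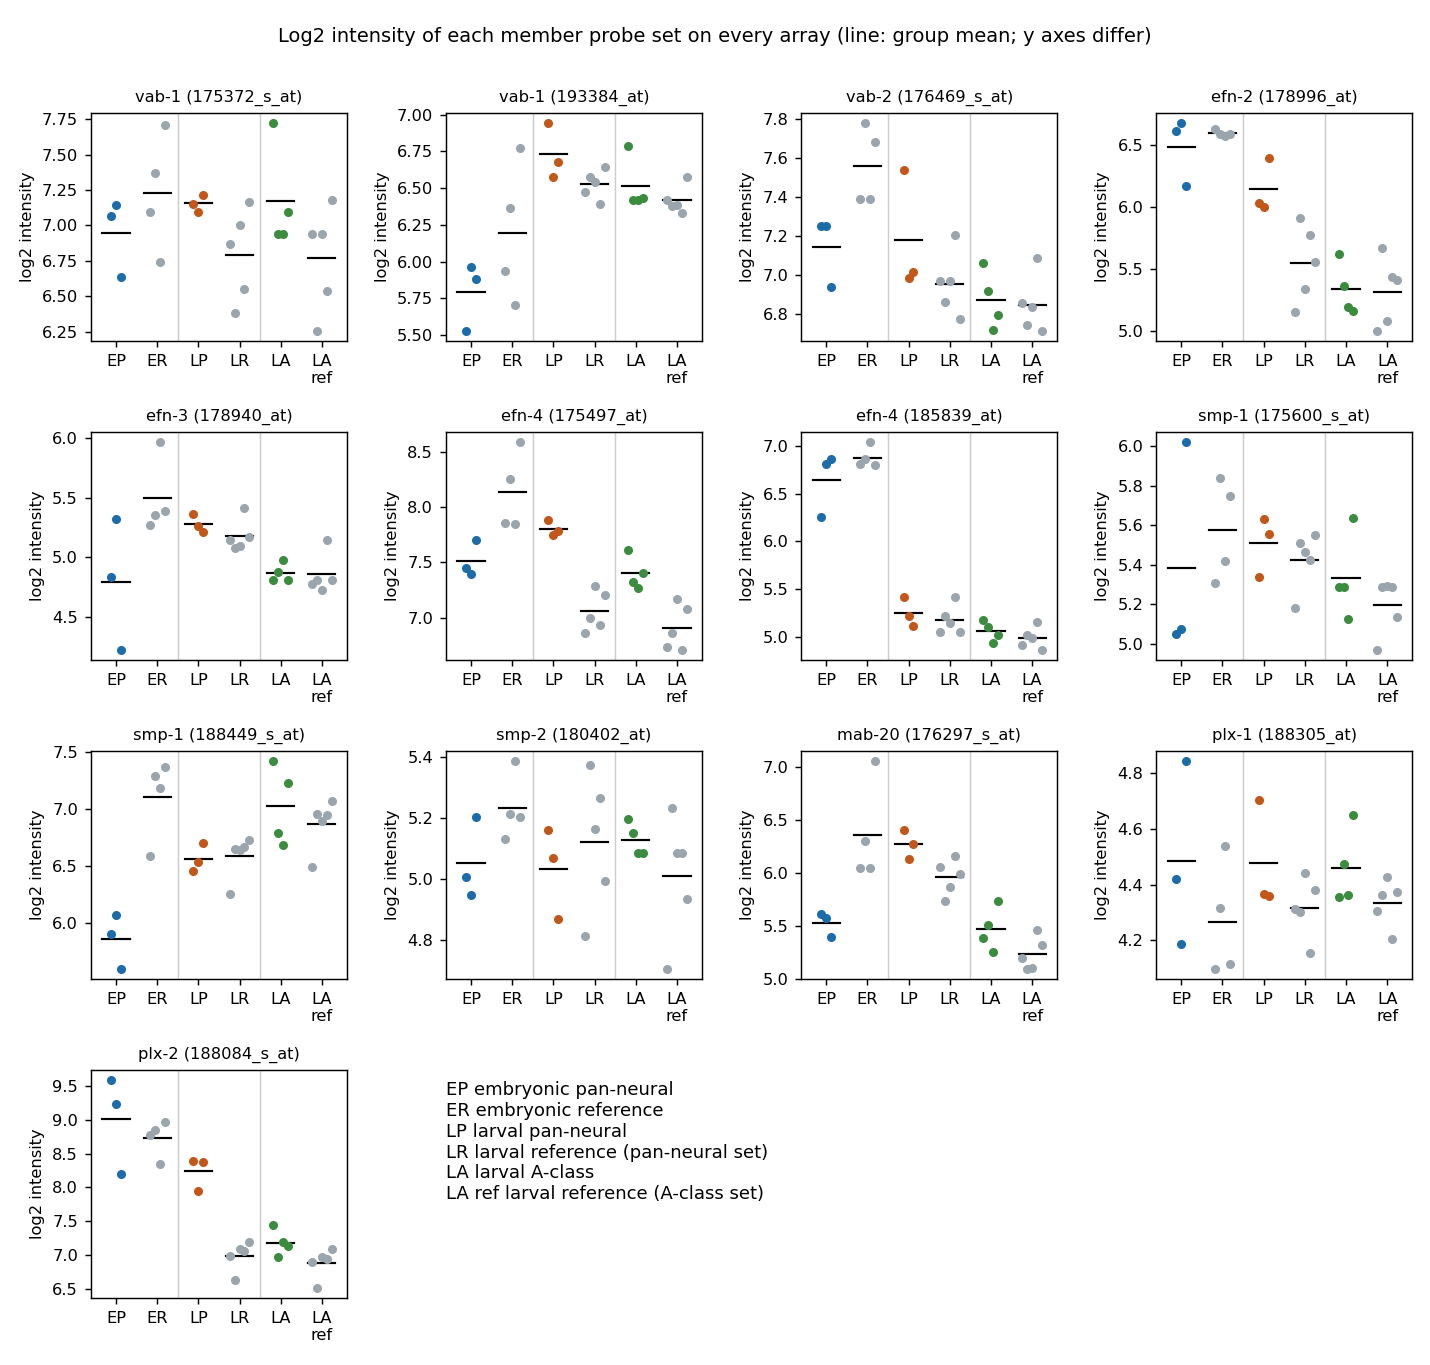
Log2 intensity (y axis) of each of the 13 probe sets on every array, in 6 groups along the x axis: embryonic pan-neural (EP, 3 arrays) and its reference (ER, 4), larval pan-neural (LP, 3) and its reference (LR, 5), larval A-class (LA, 4) and its reference (LA ref, 5). Points are arrays, lines are group means, and grey vertical lines part sets that were normalized separately, across which levels are not comparable; plx-2 stands apart from its reference in LP, with 7.95 to 8.40 against 6.63 to 7.19.

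Some facts of the whole series bear on these values. The squared correlation between replicate arrays averaged 0.943 to 0.979 over the groups. Of 13 neuron markers, 2 were called higher in embryonic neurons, 11 in larval pan-neural RNA and 4 in A-class RNA, and of 8 markers of A-class and other cholinergic motor neurons 1, 7 and 5 were, with none lower. The synaptic vesicle gene snb-1 differed by 0.24, 1.09 and 0.63 in these samples (adjusted p = 0.288, 8.45e-05 and 0.00291), and unc-4, the gene whose promoter drives the A-class tag, was 8.83-fold higher in the A-class sample (log2 change 3.14 ± 0.18 SE, adjusted p = 3.88e-05). Markers of the epidermis, where several of the members are also known to act, had summed intensities of 1305 to 2020 in embryonic neurons and 3999 to 7463 in their reference, and of 5528 to 7835 in larval pan-neural RNA and 10452 to 15686 in its reference, with 3 of 11 called lower in each. The sums were 14318 to 19183 in A-class RNA and 10180 to 15316 in its reference, with 0 of 11 called. The epidermal gene lin-26 differed by -1.21, -0.93 and -0.06 in the 3 samples (adjusted p = 0.0761, 0.00283 and 0.846). Markers of dividing cells summed to 1098 to 1732 in embryonic neurons and 4126 to 6294 in their reference, with 4 of 7 called lower, mcm-7 among them (-4.67 ± 0.36, adjusted p = 0.000877), and 0 of 7 were called in either larval sample. In larval pan-neural RNA these sums were 1093 to 1163, against 1424 to 2006 in its reference, and those of body wall muscle markers were 11953 to 19029, against 20578 to 26298, with 0 of 10 called and no overlap in either. In embryonic neurons 3 of 10 body wall muscle markers, 1 of 5 germline and 1 of 5 glia markers were lower and 1 of 10 intestine markers was higher, while the muscle myosin gene myo-3 differed by -0.65 (adjusted p = 0.04). In larval pan-neural RNA 3 of 10 intestine, 2 of 5 germline and 1 of 5 glia markers were lower, and myo-3 differed by -0.71 (adjusted p = 0.0692). None of these 4 lists had a called gene in A-class RNA, and none of 6 pharynx markers was called in any sample. The 3′ minus 5′ signal of Gapdh, which grows as RNA is shortened, averaged 0.78 ± 0.14 (log2, SD) in embryonic neurons and 1.16 ± 0.12 in their reference, 2.74 ± 0.14 in larval pan-neural RNA and 2.20 ± 0.56 in its reference, and 2.49 ± 0.26 in A-class RNA and 2.41 ± 0.59 in its reference. That of actin lay the other way in embryos, at 3.56 ± 0.37 in neurons and 3.33 ± 0.21 in their reference, and was 3.82 ± 0.03 in larval pan-neural RNA and 3.23 ± 1.00 in its reference, and 3.47 ± 0.36 in A-class RNA and 3.28 ± 1.05 in its reference. The part of these other cells and of RNA length in the differences given below was not tested, and in RNA of many cells a smaller share of cells that make a transcript and less transcript per cell cannot be told apart. Embryonic neurons and their reference shared no hybridization day and no chip lot, so day, lot and sample cannot be told apart there. The A-class arrays shared no hybridization day with their references or with the larval pan-neural arrays. Day and sample therefore cannot be told apart in either comparison of the A-class sample. Larval pan-neural replicates 2 and 3 were hybridized on the same day as larval references 4 and 5.

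The Eph receptor gene vab-1 did not pass the test in any sample. Its probe set 175372_s_at read 7.07, 7.15 and 6.63 (log2) in embryonic neurons, against 7.10, 7.37, 6.74 and 7.71 in the embryonic reference. The change was -0.28 ± 0.24 (SE, adjusted p = 0.457), within the spread of the reference arrays. It read 7.15, 7.10 and 7.22 in the larval pan-neural sample, against 6.87, 6.38, 7.0, 6.55 and 7.17 in the larval reference, a change of 0.36 ± 0.17 (adjusted p = 0.203). The pan-neural arrays lay close together at the upper end of the reference arrays. A-class arrays read 7.72, 6.94, 6.94 and 7.10, against 6.94, 6.26, 6.94, 6.53 and 7.18 in the reference (0.41 ± 0.22, adjusted p = 0.421). A-class replicate 1 was the highest of these, and without it the change was 0.22. The other vab-1 probe set, 193384_at, gave changes of -0.40 ± 0.26 in embryonic neurons, 0.21 ± 0.11 in larval pan-neural RNA and 0.10 ± 0.09 in the A-class sample, with adjusted p from 0.249 to 0.717. The difference between the changes of the 2 vab-1 probe sets did not pass an exact permutation test over arrays in any sample (two-sided p = 0.159 to 0.629).

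Among the ephrins, vab-2, whose product is a ligand of VAB-1, read 7.25, 7.25 and 6.94 in embryonic neurons, against 7.39, 7.78, 7.39 and 7.68 in the embryonic reference. All embryonic neuron arrays lay below all reference arrays, but the change of -0.42 ± 0.15 did not pass (adjusted p = 0.103). In the larval pan-neural sample vab-2 differed by 0.23 ± 0.15 (adjusted p = 0.394) and in the A-class sample by 0.03 ± 0.10 (adjusted p = 0.941). The larval pan-neural value leaned on replicate 1, at 7.54, while replicates 2 and 3 read 6.98 and 7.02 inside the reference range of 6.77 to 7.20.

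The ephrin efn-2, another ligand of VAB-1, came closest to the call in the larval pan-neural sample among the members that missed it. It read 6.03, 6.0 and 6.39 there, against 5.15, 5.91, 5.34, 5.77 and 5.55 in the larval reference. The groups did not overlap, and the change of 0.59 ± 0.18 (1.51-fold) had an adjusted p of 0.0494. For the A-class sample efn-2 read 5.62, 5.36, 5.19 and 5.16, against 5.00, 5.67, 5.07, 5.43 and 5.41 in the reference, and the change was 0.02 ± 0.15. In embryonic neurons it read 6.61, 6.68 and 6.16, against 6.63, 6.59, 6.57 and 6.59 in the embryonic reference, where the 4 arrays lay within 0.06 of each other. The change there was -0.11 ± 0.14 (adjusted p = 0.621), and only replicate 3 lay below all reference arrays.

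The ephrin efn-3, also a ligand of VAB-1, read 4.84, 5.33 and 4.22 in embryonic neurons, against 5.28, 5.36, 5.97 and 5.39 in the embryonic reference. The change of -0.70 ± 0.28 did not pass (adjusted p = 0.134), and the embryonic neuron arrays differed from each other by more than the mean change. Without embryonic pan-neural replicate 3, the lowest, it was -0.42, and without replicate 2, the highest, -0.97. Larval efn-3 levels in the pan-neural and A-class samples differed from the reference by 0.10 ± 0.10 and 0.02 ± 0.09 (adjusted p = 0.609 and 0.964).

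The ephrin efn-4 had the clearest neuronal signal of the ephrins in larvae, at 1 of its 2 probe sets. Probe set 175497_at read 7.89, 7.75 and 7.78 in the larval pan-neural sample, against 6.86, 7.0, 7.29, 6.93 and 7.20 in the larval reference. All pan-neural arrays lay above all reference arrays and within 0.14 of each other. The change was 0.75 ± 0.12 (1.68-fold, adjusted p = 0.00209), called higher. Without larval pan-neural replicate 1 or 3 the adjusted p was 0.0112 and 0.012, with changes of 0.71 and 0.76. On the A-class arrays the probe set read 7.61, 7.33, 7.27 and 7.40, against 6.73, 6.86, 7.17, 6.71 and 7.08 in the reference. These groups did not overlap either, but the change of 0.49 ± 0.12 (1.41-fold) was not called (adjusted p = 0.0529). As the groups did not overlap, 4 of 4 A-class arrays were bound to lie above the reference mean. For the same reason the exact permutation test could only give the smallest p that 4 against 5 arrays allow, 0.0159. That p was not adjusted over the member probe sets. In embryonic neurons the same probe set lay on the other side of its reference, at 7.45, 7.39 and 7.70, against 7.86, 8.25, 7.85 and 8.59 in the embryonic reference. The groups did not overlap, and the change of -0.62 ± 0.20 was not called (adjusted p = 0.0786).

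The other efn-4 probe set, 185839_at, did not show the larval difference. The probe set read 5.42, 5.22 and 5.12 in the larval pan-neural sample, against 5.05, 5.22, 5.15, 5.42 and 5.06 in the larval reference, and the groups lay over each other (0.07 ± 0.12, adjusted p = 0.772). Over A-class arrays the change was 0.07 ± 0.08 (adjusted p = 0.758). The change of 175497_at exceeded that of 185839_at by 0.68 (log2) over larval pan-neural arrays and by 0.42 over A-class arrays, each with the smallest exact permutation p its arrays allow (0.0357 and 0.0159, two-sided, or 0.161 and 0.143 after adjustment over the 9 such comparisons made). In embryonic neurons 185839_at read 6.25, 6.81 and 6.86, against 6.81, 6.86, 7.04 and 6.80 in the embryonic reference, and its change was -0.23 ± 0.17. The position of each probe set along the efn-4 transcripts was not checked here, and the larval call of efn-4 rests on 175497_at alone.

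**Figure D2:**
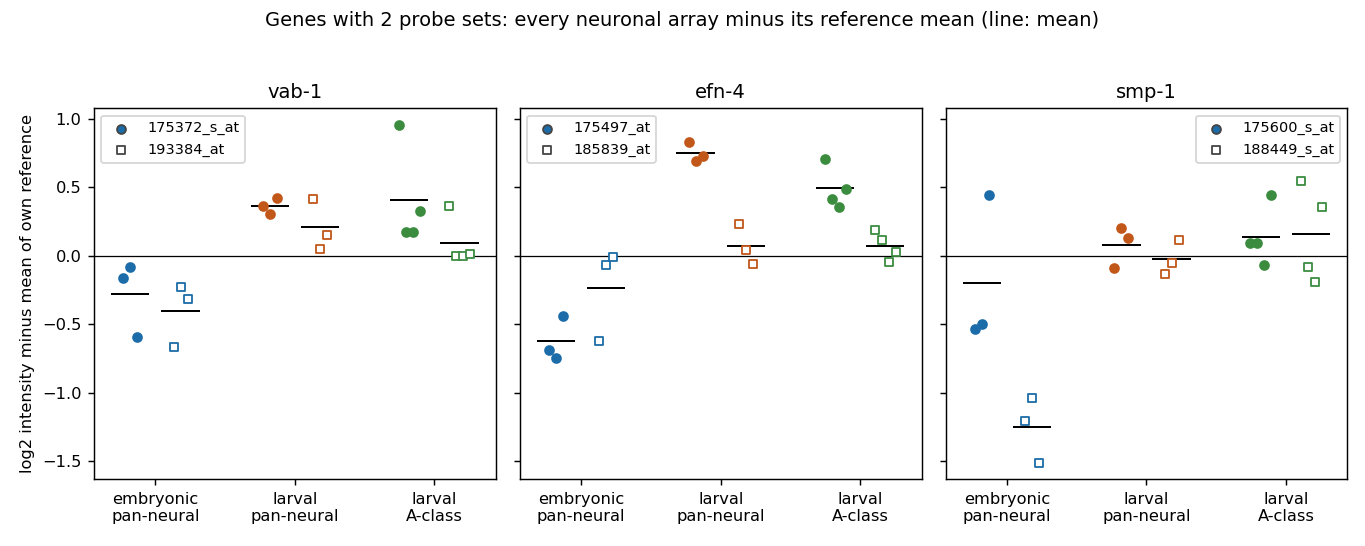
Log2 intensity of every neuronal array minus the mean of its own reference (y axis) for the 3 genes with 2 probe sets, by sample (x axis). Filled circles and open squares are the 2 probe sets, points are arrays and lines are means; at efn-4 the circles average 0.75 in the larval pan-neural sample and the squares 0.07, and at smp-1 the squares average -1.25 in embryonic neurons and the circles -0.20.

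Of the semaphorins, smp-1, which encodes a membrane-bound ligand of PLX-1, was the member most strongly depleted in embryonic neurons. Its probe set 188449_s_at read 5.90, 6.07 and 5.60 there, against 6.59, 7.29, 7.18 and 7.37 in the embryonic reference. All neuron arrays lay below all reference arrays. The level was 2.38-fold lower in embryonic neurons (log2 change -1.25 ± 0.21, adjusted p = 0.00919), just past the threshold. Leaving out any 1 array but embryonic reference 1 ended the call, with adjusted p between 0.0224 and 0.0365 and changes between -1.36 and -1.12. The exact permutation test gave 0.0571, the smallest p that 3 against 4 arrays allow. The other smp-1 probe set, 175600_s_at, read 5.05, 5.08 and 6.02 in embryonic neurons, against 5.31, 5.84, 5.42 and 5.75 in the reference. Replicates 1 and 2 lay below the reference and replicate 3 above it, so that the mean change was only -0.20 ± 0.26 (adjusted p = 0.639). The change of 175600_s_at exceeded that of 188449_s_at by 1.06 (exact permutation p = 0.0571, the smallest possible, or 0.171 after adjustment over the 9 comparisons).

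In larvae smp-1 lay near its reference. Probe set 188449_s_at read 6.46, 6.54 and 6.70 in the larval pan-neural sample, against 6.25, 6.65, 6.64, 6.67 and 6.73 in the larval reference (-0.02 ± 0.13, adjusted p = 0.946). A-class arrays read 7.42, 6.79, 6.68 and 7.22, against 6.49, 6.95, 6.89, 6.95 and 7.07 in the reference (0.16 ± 0.17, adjusted p = 0.742). A-class replicates 1 and 4 were above all reference arrays and replicates 2 and 3 within them. Probe set 175600_s_at differed by 0.08 ± 0.11 and 0.14 ± 0.11 in these samples, neither of which passed the test (adjusted p = 0.73 and 0.634).

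The semaphorin mab-20, a secreted ligand of PLX-2, read 5.62, 5.58 and 5.40 in embryonic neurons, against 6.05, 6.30, 6.05 and 7.06 in the embryonic reference. The groups did not overlap, and the level was 1.78-fold lower in embryonic neurons (-0.83 ± 0.25), but the adjusted p of 0.0626 missed the threshold. Embryonic reference 4 was far above the others, and without it the change was -0.60. In the larval pan-neural sample mab-20 read 6.41, 6.14 and 6.28, against 6.06, 5.74, 5.87, 6.16 and 5.99 in the reference, a change of 0.31 ± 0.12 (adjusted p = 0.105). A-class arrays read 5.39, 5.51, 5.26 and 5.74, against 5.20, 5.10, 5.10, 5.47 and 5.33 in the reference (0.24 ± 0.11, adjusted p = 0.359). The pan-neural arrays lay at the upper end of their references with overlap, while the A-class arrays were spread from the middle of theirs to above them.

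The semaphorin smp-2, the other membrane-bound ligand of PLX-1, was low on all arrays, between 4.71 and 5.39. It differed from the reference by -0.18 ± 0.11 in embryonic neurons, -0.09 ± 0.14 in larval pan-neural RNA and 0.12 ± 0.10 in the A-class sample. None of these passed the test (adjusted p = 0.318, 0.771 and 0.659), and the groups overlapped in each.

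The plexin plx-2, receptor of MAB-20, had the largest enrichment of the 13 probe sets in the larval pan-neural sample. It read 8.40, 7.95 and 8.38 there, against 6.99, 6.63, 7.08, 7.06 and 7.19 in the larval reference. The lowest pan-neural array, at 7.95, lay well above the highest reference array, at 7.19. The level was 2.38-fold higher in larval neurons (1.25 ± 0.15, adjusted p = 0.000545), and leaving out any 1 of the 8 arrays kept the call, with changes between 1.16 and 1.40. With only the 2 references of the same labelled set the change was 1.12 (adjusted p = 0.0183). On A-class arrays plx-2 read 7.44, 6.96, 7.19 and 7.13, against 6.89, 6.51, 6.97, 6.94 and 7.09 in the reference. The groups overlapped, and the change of 0.30 ± 0.13 (1.23-fold) was not called (adjusted p = 0.294, exact permutation p = 0.0476, above the reference mean in 4 of 4 arrays). The exact p was not adjusted over the member probe sets. In A-class RNA vab-1 at 175372_s_at, efn-4 at 175497_at, smp-2, mab-20 and plx-1 were also above the reference mean in 4 of 4 arrays.

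In embryonic neurons plx-2 varied more between arrays than any other member. It read 9.59, 9.24 and 8.20, against 8.78, 8.85, 8.35 and 8.96 in the embryonic reference. Replicates 1 and 2 were above all reference arrays and replicate 3 was below all of them, and the mean change was 0.27 ± 0.32 (adjusted p = 0.591). Without replicate 3 the change was 0.68 (adjusted p = 0.0842), and without replicate 1 it was -0.02. These 3 arrays do not settle whether plx-2 is enriched in embryonic neurons.

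The plexin plx-1, receptor of SMP-1 and SMP-2, lay between 4.10 and 4.84 on all arrays. Its mean was below the lower quartile of all probe sets in each of the 6 groups, for instance 4.48 against a quartile of 4.89 in the larval pan-neural sample. Changes were 0.22 ± 0.18 in embryonic neurons, 0.16 ± 0.11 in larval pan-neural RNA and 0.12 ± 0.08 in the A-class sample, with overlapping groups. None passed the test (adjusted p = 0.456, 0.423 and 0.531), and at this level a probe set near the floor of the array has little room to show a lower value.

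**Figure D3:**
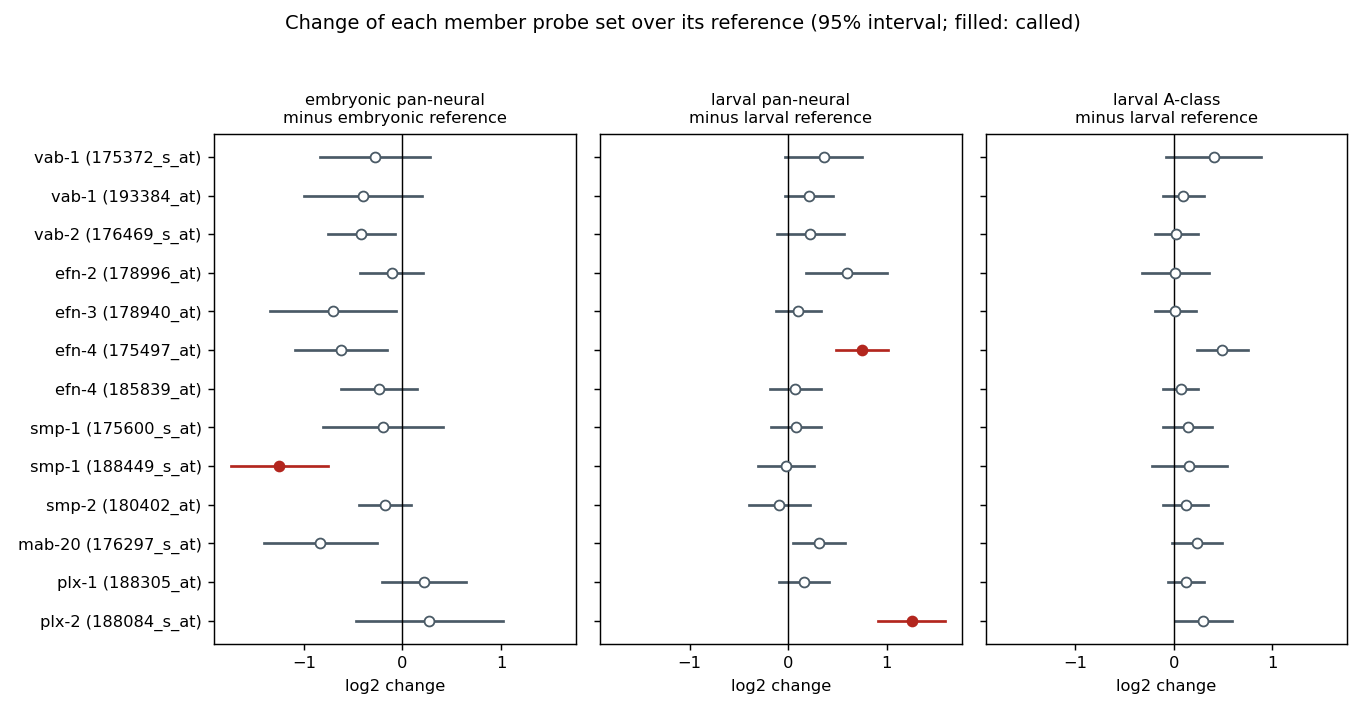
Log2 change over the own reference (x axis) for each of the 13 probe sets (y axis), in embryonic pan-neural cells, the larval pan-neural sample and the larval A-class sample, the last 2 against the same reference hybridizations. Points are changes and bars 95% intervals, and filled points are called. In embryonic neurons 11 of 13 points are below 0, and efn-2 and plx-2 turned sign under some alternatives. In the A-class sample 13 of 13 are above 0, of which vab-2, efn-2, efn-3 and mab-20 turned sign under some alternatives.

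The signs of all 13 changes, called or not, were also counted. In embryonic neurons 11 of 13 changes were below 0, with a median of -0.28, beside a median of 0.04 over all probe sets, 55.8% of which were above 0. In 4 of 13 (vab-2, efn-4 at 175497_at, smp-1 at 188449_s_at and mab-20) the neuron arrays lay below all reference arrays (13.4% of all probe sets), and in 0 of 13 above them (15.3% of all). In the larval pan-neural sample 11 of 13 changes were above 0, with a median of 0.21, beside 0.00 over all probe sets, 50.3% of which were above 0. In 3 of 13 (efn-2, efn-4 at 175497_at and plx-2) the pan-neural arrays lay above all reference arrays (12.5% of all), and in 0 below them (11.5% of all). In the A-class sample 13 of 13 changes were above 0 but small, with a median of 0.12, beside -0.01 over all probe sets, 47.6% of which were above 0, and only efn-4 at 175497_at lay above all reference arrays (3.92% of all), with 0 of 13 below them (2.81% of all). The count of 13 was not stable, since the sign of the A-class change turned under 4 of 18 alternatives for vab-2, 5 of 17 for efn-2, 4 of 17 for efn-3 and 1 of 17 for mab-20, whose lowest value was -0.05. Signs also turned in the larval pan-neural sample, under 2 of 15 alternatives for efn-3, 2 of 15 for efn-4 at 185839_at and 3 of 16 for smp-1 at 188449_s_at. In embryonic neurons they turned under 1 of 14 for efn-2 and 1 of 14 for plx-2. Both larval samples share their reference hybridizations. The 13 changes of a sample come from the same arrays, and vab-1, efn-4 and smp-1 enter with 2 probe sets each, so the signs are not independent.

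The larval calls were also looked at within the hybridization day that held both groups. On that day plx-2 was higher by 1.04 (log2) in 2 pan-neural arrays, at 7.95 and 8.38, than in 2 reference arrays, at 7.06 and 7.19. For efn-4 at 175497_at the difference was 0.70 and for efn-2 0.53, again with no overlap. The changes of mab-20 (0.13 on that day, 0.31 over all arrays) and vab-2 (0.01 and 0.23) were nearer 0 on that day, and efn-3 (-0.05) and efn-4 at 185839_at (-0.07) lay below 0. On that day 9 of 13 were above 0, against 11 of 13 over all arrays. A fit with the day as a block uses the same within-day differences, and in it neither plx-2 nor efn-4 was called (adjusted p = 0.0329 and 0.0389).

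Whether enrichment differed between embryonic and larval neurons was tested as the difference of both changes in 1 fit over 15 arrays. The efn-4 probe set 175497_at was lower relative to its reference in embryonic neurons (-0.62) than in larval neurons (0.75), a difference of -1.37 ± 0.23 (2.59-fold, adjusted p = 0.00172). The smp-1 probe set 188449_s_at likewise differed by -1.23 ± 0.25 (2.35-fold, adjusted p = 0.00527), with -1.25 in embryonic neurons and -0.02 in larval neurons. These were 2 of 13 called lower (3.13% of all probe sets), while 0 were called higher (1.88% of all), and 8 had an unadjusted p under 0.05. The difference of efn-4 kept its call without any 1 of the 15 arrays, with values between -1.47 and -1.22, and that of smp-1 lost it without any 1 of 9 of them (embryonic neurons 1 and 3, embryonic references 2, 3 and 4, the 3 larval pan-neural arrays and larval reference 2), with adjusted p between 0.0101 and 0.0197. Without embryonic reference 1 or 4, mab-20 was called as well.

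Most other members leaned the same way without passing. For mab-20 the difference was -1.14 ± 0.28 (adjusted p = 0.0146), with -0.83 in embryonic and 0.31 in larval neurons. For plx-2 it was -0.98 ± 0.36 (adjusted p = 0.093), for efn-3 -0.80 ± 0.29 (adjusted p = 0.0912) and for efn-2 -0.70 ± 0.24 (adjusted p = 0.0732). The values of plx-2 and efn-3 rested on embryonic arrays that spread widely. In all, 12 of 13 differences were below 0, plx-1 at 0.06 being the other, with a median of -0.64, beside 0.04 over all probe sets, 53.8% of which were above 0. The embryonic reference was all cultured cells and the larval reference was RNA bound in mock pull-downs, and neuronal RNA was obtained by sorting in embryos and by pull-down in larvae, so stage, method and kind of reference cannot be told apart in these differences.

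Whether A-class neurons differed from the whole larval nervous system was tested on values from which the mean of the shared references had been taken. The plexin plx-2 was lower in the A-class sample (0.30 over the reference) than in the pan-neural sample (1.25), a difference of -0.95 ± 0.15 (1.93-fold, adjusted p = 0.00492), and it was the 1 of 13 called lower (3.76% of all probe sets), with 0 called higher (1.95% of all) and 3 at an unadjusted p under 0.05. The array values of plx-2 relative to the reference did not overlap, with 0.56, 0.08, 0.31 and 0.25 in A-class RNA and 1.41, 0.96 and 1.39 in the pan-neural sample. The call was lost without any 1 of 5 of the 7 arrays (A-class replicates 2, 3 and 4 and pan-neural replicates 1 and 3), with adjusted p between 0.0173 and 0.0289 and differences between -0.95 and -0.87. In this comparison 5 of 13 neuron markers were also called lower and 0 higher, with a median of -0.62. Of 8 markers of A-class and other cholinergic motor neurons, 1 was higher and 1 lower. Markers of the epidermis (5 of 11), intestine (3 of 10), dividing cells (3 of 7) and body wall muscle (1 of 10) were called higher, with 0 lower. The part of the neuronal share of the RNA in the differences of this comparison was not tested. The tag also differed between the lines, FLAG in the pan-neural and 3XFLAG in the A-class line, so tag and sample cannot be told apart here.

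The ephrin efn-2 differed in the same direction by -0.58 ± 0.15 (adjusted p = 0.0356), with 0.02 in A-class RNA and 0.59 in the pan-neural sample, and was not called. For efn-4 at 175497_at the difference was -0.26 ± 0.11 (adjusted p = 0.165), with a 95% interval of -0.50 to -0.01. The remaining 10 probe sets differed by -0.20 to 0.21. Over the 13 the median was -0.07 and 4 were above 0, beside a median of -0.01 over all probe sets, 48.2% of which were above 0.

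**Figure D4:**
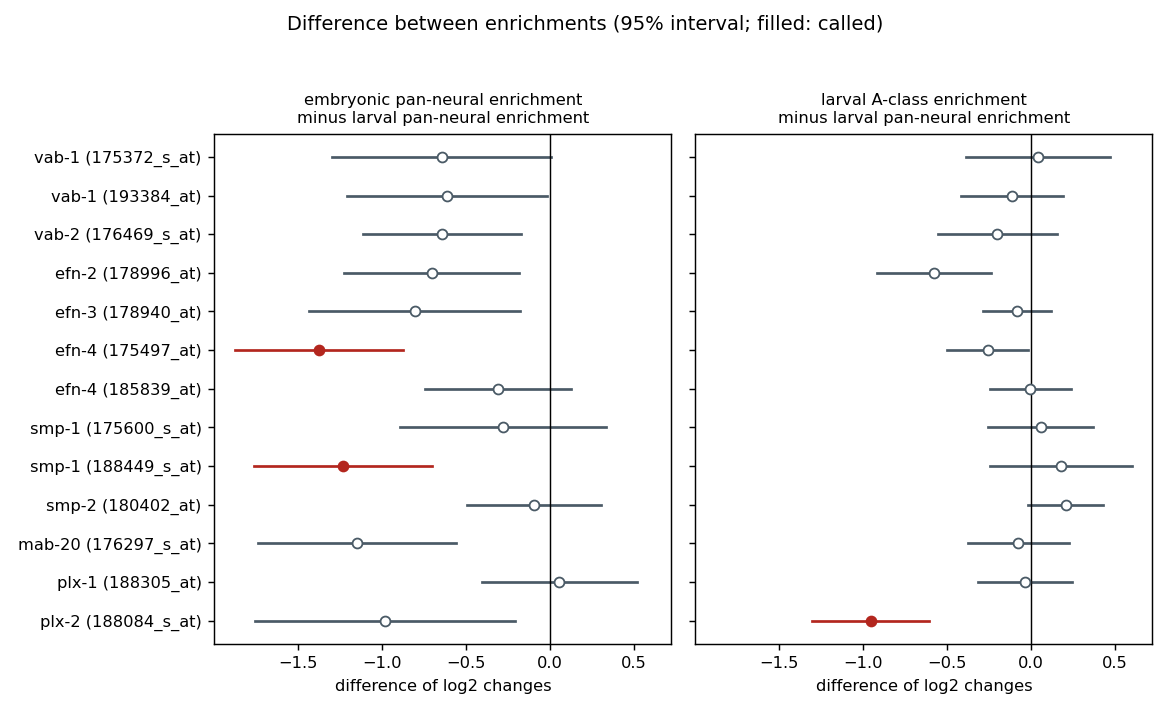
Difference between enrichments (x axis, log2) of each of the 13 probe sets (y axis), for embryonic minus larval pan-neural enrichment and for larval A-class minus larval pan-neural enrichment. Points are differences, bars 95% intervals and filled points called; efn-4 at 175497_at (-1.37) and smp-1 at 188449_s_at (-1.23) are called in the first and plx-2 (-0.95) in the second.

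Genes that work with these proteins were read from 3 lists, by the probe set with the highest mean level of each gene. The marker genes were read in the same way. Of the genes that act with efn-4, lad-2 had 5 probe sets, lon-2 and sdn-1 had 2 each, and kal-1 and gpn-1 had 1 each. Their other probe sets were not read, so values and counts for these genes hold for the probe set used. All called genes were in the list of genes that act with efn-4. Among its 5 genes, 3 were called higher in the larval pan-neural sample (6.08% of all probe sets), 1 in embryonic neurons (1.96%) and 0 in the A-class sample (0.776%), none was called lower in these, and the medians were 0.76, -0.24 and 0.00. The gene lad-2 encodes an L1-type adhesion protein that is known as a coreceptor for MAB-20 beside PLX-2. It read 9.79, 9.18 and 9.70 in the larval pan-neural sample, against 8.02, 7.55, 7.74, 7.95 and 7.85 in the larval reference (1.73 ± 0.16, 3.32-fold, adjusted p = 0.000118). In embryonic neurons it read 8.89, 8.36 and 8.40, against 7.32, 6.85, 6.25 and 6.85 in the embryonic reference (1.73 ± 0.25, 3.32-fold, adjusted p = 0.00564). On the A-class arrays lad-2 overlapped with its reference, at 7.46, 7.56, 7.33 and 7.27, against 7.63, 7.31, 7.46, 7.70 and 7.51 (-0.12 ± 0.10, adjusted p = 0.637). Its embryonic call was lost without any 1 of 5 of the 7 arrays (the 3 embryonic neuron arrays and embryonic references 2 and 4), with adjusted p between 0.0173 and 0.0269.

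The extracellular protein gene kal-1, the worm counterpart of the Kallmann syndrome gene anosmin, read 7.45, 7.08 and 7.06 in the larval pan-neural sample, against 6.20, 6.47, 6.47, 6.42 and 6.36 in the larval reference. It was called higher (0.81 ± 0.12, 1.76-fold, adjusted p = 0.00135), with no overlap. A-class kal-1 was at its reference (0.00 ± 0.09), and in embryonic neurons it differed by -0.98 ± 0.34 (adjusted p = 0.0986). The glypican gene lon-2 was called higher in the larval pan-neural sample (0.76 ± 0.11, adjusted p = 0.00169), where its 3 arrays all read 9.14 to 9.16 against 8.11 to 8.60 in the reference. The call was lost without larval pan-neural replicate 3 (adjusted p = 0.0108). A-class lon-2 differed by 0.56 ± 0.10 and was not called (adjusted p = 0.0169). The syndecan gene sdn-1 gave 0.66 ± 0.21 in the larval pan-neural sample (adjusted p = 0.0566), and the glypican gene gpn-1 -0.20 ± 0.12 (adjusted p = 0.303).

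Between the enrichments, kal-1 was lower in embryonic than in larval neurons (-1.80 ± 0.36, adjusted p = 0.00533), and lower in A-class RNA than in larval pan-neural RNA (-0.81 ± 0.14, adjusted p = 0.00615). Both calls on kal-1 were lost without any 1 of several arrays, 7 of 15 in the first (embryonic neurons 1 and 3, embryonic reference 2, larval pan-neural replicates 1 and 3 and larval references 1 and 2, with adjusted p up to 0.0192) and 6 of 7, all but A-class replicate 1, in the second (up to 0.0241). For lad-2 the difference between embryonic and larval neurons was 0.00 ± 0.31, and that between A-class and pan-neural enrichment was -1.85 ± 0.16 (3.60-fold, adjusted p = 0.000225). Thus 1 of 5 genes was called lower in the first of these comparisons (3.13% of all probe sets) and 2 of 5 in the second (3.76%).

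**Figure D5:**
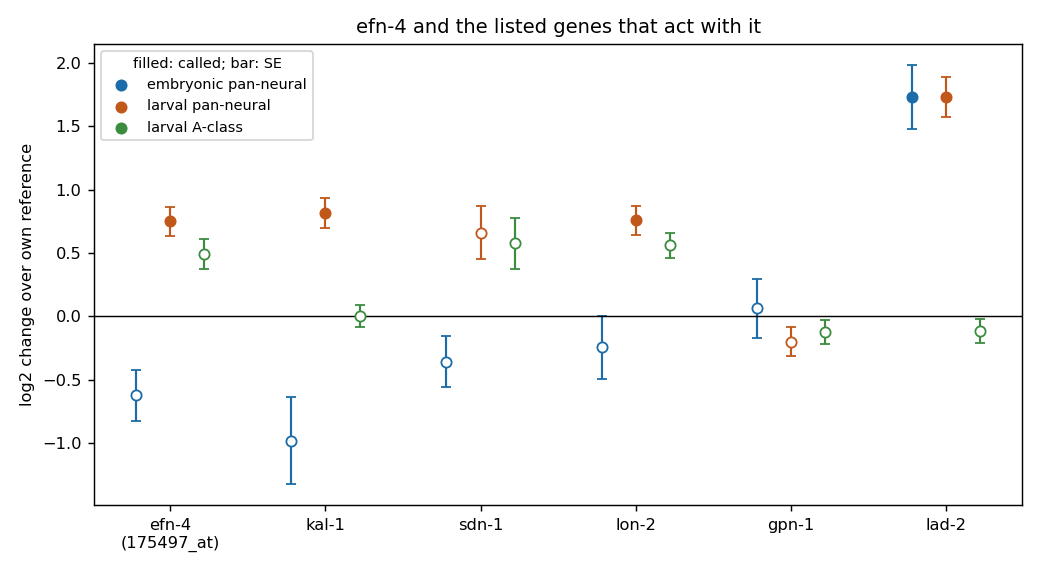
Log2 change over the own reference (y axis) of efn-4 at 175497_at and of the 5 genes listed as acting with it (x axis), in embryonic pan-neural cells, the larval pan-neural sample and the larval A-class sample. Points are changes, bars SE, and filled points are called; lad-2 stands at 1.73 in both pan-neural samples and at -0.12 in the A-class sample.

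The lists for the VAB-1 receptor and for plexin signalling held no called gene in any comparison. Of 8 genes that act with VAB-1, the medians were 0.35 in embryonic neurons, 0.19 in larval pan-neural RNA and 0.04 in the A-class sample. The lowest p-values were those of ptp-3, a receptor tyrosine phosphatase, at 0.63 ± 0.15 (adjusted p = 0.027), and of wsp-1, the WASP actin regulator, at 0.80 ± 0.19 (adjusted p = 0.0303) in embryonic neurons. For larval pan-neural RNA they were those of vpr-1, at 0.39 ± 0.10 (adjusted p = 0.0286), and of ptp-3, at 0.46 ± 0.13 (adjusted p = 0.038). For A-class RNA it was that of ptp-3, at 0.32 ± 0.11 (adjusted p = 0.167).

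Of 11 genes of plexin signalling the medians were -0.04, -0.02 and 0.03 in the same order of samples. The small GTPase gene rap-2 gave -0.92 ± 0.26 (adjusted p = 0.0502) and the Rac-like mig-2 -0.42 ± 0.13 (adjusted p = 0.0715) in embryonic neurons. The cofilin gene unc-60 gave 0.51 ± 0.16 (adjusted p = 0.0506) in the larval pan-neural sample. For A-class RNA gcn-1, a regulator of translation, and rap-1 had the lowest p-values (-0.50 ± 0.22 and 0.29 ± 0.13, adjusted p = 0.294 and 0.312). Between enrichments, rap-2 differed by -1.07 ± 0.29 (adjusted p = 0.0278) and wsp-1 by 0.84 ± 0.24 (adjusted p = 0.0312) between embryonic and larval neurons, and neither was called. The next lowest p-values of these lists in that comparison were those of rap-1, at -0.94 ± 0.30 (adjusted p = 0.0531), and vpr-1, at -0.37 ± 0.20 (adjusted p = 0.262). Between A-class and pan-neural enrichment they were those of vpr-1 (-0.39 ± 0.11, adjusted p = 0.0464) and, among plexin signalling genes, of unc-60 (-0.37 ± 0.13, adjusted p = 0.113).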

How the data were processed

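The authors amplified the RNA, labelled it with biotin and hybridized it to the Affymetrix C. elegans GeneChip. The deposited values are intensity per probe set on a linear scale, which the authors made with RMA, a method that subtracts background, brings arrays to 1 distribution and summarises the probes of a set, separately for 3 sets of arrays. Sources used here give no version of it. Further deposited records describe how each array was washed and scanned, and its day, wash protocol and chip lot were read there.

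Intensities were turned to log2, and 77 controls were left out. Probe sets were named by the platform annotation, in which 20766 had a single gene, 887 several and 895 none. No probe set with several genes named a member, and RefSeq gene records (WBcel235) held all 10 member genes. A probe set whose name ends in _s_at matches more than 1 transcript, and cross-hybridization was not checked. Comparisons used limma 3.58.1 in R 4.3.3, and the SAM test of the study's methods was not run, but its thresholds of 1.5-fold and a false discovery rate were kept. SE is the moderated standard error. Single probe sets were also tested by exact permutation over arrays, two-sided. Scripts were tested on simulated data. The 5 larval references stand in the labels under 2 set numbers, 3 of them under that of the embryonic arrays. Their quantiles were within 0.20 (log2) of the larval pan-neural arrays and at least 0.54 from the embryonic arrays, and all 5 were used with the larval samples, as the series design states. The squared correlation between both versions of a reference was at least 0.991, so the 24 samples are 19 hybridizations.

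The members, the 3 lists of genes that act with them and the 9 lists of cell markers were chosen with earlier results of these data known. Genes named from the lists were those called in a comparison, or else the 2 with the smallest p in each comparison, of which some are not reported here, and the markers named were unc-4, snb-1, lin-26, myo-3 and mcm-7. Alternatives were other scalings, a filter at a group mean of log2 6, an adjusted p under 0.05 with no minimum change, a variance prior that follows intensity, leaving out each array, blocks for replicate number, day and wash protocol, and other uses of the references. Precision is limited by how few arrays each group has.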

Additional observations from a re-analysis of the deposited data

Results flagged for a closer look

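On 5 of 52 combinations of a probe set and a group of 4 or 5 arrays, 1 array lay far from the others by Dixon's test, which by chance flags about 1 group in 20. For efn-3, embryonic reference 3 read 5.97, with the next array at 5.39. Larval reference 4 read 5.41 for efn-3 in the pan-neural set, with the next at 5.17, and 5.15 in the A-class set, with the next at 4.81, and these are 2 normalizations of 1 hybridization. For smp-1 at 188449_s_at, larval reference 1 read 6.25 in the pan-neural set, below the next at 6.64. For vab-1 at 193384_at, A-class replicate 1 read 6.78, above the next at 6.43, and it was also the highest A-class array at the other vab-1 probe set. That array had been washed by another protocol than the other A-class arrays, and the part of the protocol was not tested apart from the array.

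The enrichment of 3 probe sets differed between samples by a test of the difference itself. For efn-4 at 175497_at embryonic minus larval pan-neural enrichment was -1.37, for smp-1 at 188449_s_at it was -1.23, and for plx-2 A-class minus larval pan-neural enrichment was -0.95.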

How the results depend on the processing

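No called value of a member changed its sign under any alternative run, while some uncalled values did. In embryonic neurons 0 members instead of 1 were called lower after centring each array on its median, after quantile normalization, with the replicate block and with the hybridization day as a random block, and leaving out 1 array gave 0 to 1. In the larval pan-neural sample, 1 instead of 2 were called higher with the replicate block (efn-4 lost the call, adjusted p = 0.0255), 0 with the day as a fixed block, 0 with the 2 references of the same labelled set, where fewer arrays were used, 3 at an adjusted p under 0.05 (efn-2 gained), and 1 to 2 without 1 array. Between embryonic and larval enrichment, 1 instead of 2 were called lower after quantile normalization, 3 at an adjusted p under 0.05 and 1 to 3 without 1 array, mab-20 being gained at that threshold and without embryonic reference 1 or 4. Between A-class and pan-neural enrichment the count of 1 became 0 with the replicate block, 2 at an adjusted p under 0.05 and 2 when both samples were quantile normalized together without subtraction (mab-20 at -0.66, adjusted p = 0.00657), and 0 to 1 without 1 array. For mab-20 the same 5 reference hybridizations averaged 5.96 as normalized with the pan-neural arrays and 5.24 as normalized with the A-class arrays. That shift between normalizations is not subtracted in this alternative, and its part in the value of mab-20 was not tested. For the genes that act with efn-4, the 1 called higher in embryonic neurons became 0 with the day as a random block and 0 to 1 without 1 array. Their 3 called in the larval pan-neural sample became 1 with the replicate block, with the day as a block and with the 2 references. Their 0 in the A-class sample became 1 at an adjusted p under 0.05, the 1 between embryonic and larval enrichment became 3 at that threshold and 0 to 2 without 1 array, and the 2 between A-class and pan-neural enrichment became 1 with the replicate block and 1 to 2 without 1 array. At an adjusted p under 0.05 the 0 genes that act with VAB-1 became 2 higher in embryonic neurons, 2 in the larval pan-neural sample, 1 higher between embryonic and larval enrichment and 2 lower between A-class and pan-neural enrichment, and the 0 of plexin signalling became 1 lower between embryonic and larval enrichment and 0 to 1 without 1 array. The cause of these changes was not tested, apart from the fewer arrays where arrays were left out. The samples were compared unpaired. Same-numbered arrays did not deviate together in every pair (correlations from -0.42 to 0.33), though in embryos the correlations were 0.05, 0.17 and 0.33. With so few arrays per group this check cannot exclude a pairing by replicate number. Over all probe sets, the 442 higher and 627 lower calls in embryonic neurons ranged over 24 to 1613 and 89 to 1733 over the alternatives run (24 to 566 and 89 to 762 without 1 array), the 1372 and 754 calls in larval pan-neural RNA over 351 to 2231 and 33 to 2029, the 175 and 26 in A-class RNA over 12 to 495 and 0 to 258, the 423 and 705 between embryonic and larval enrichment over 208 to 1219 and 401 to 1569, and the 440 and 847 between A-class and pan-neural enrichment over 91 to 1389 and 289 to 1690. A block for chip lot could not be fitted apart from the sample. Probe sets near the floor of the arrays, plx-1 above all, limit what could be seen.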
